A study of Mus musculus with 294 samples.

Results

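The cytosolic ribosomal protein genes were taken as every gene whose annotated symbol begins with Rpl or Rps and a digit, or with Rplp and 0, 1 or 2, leaving out pseudogene symbols and the Rps6k kinases. The rule found 33 of the 16643 genes with a symbol on the array. Of these 33, 26 encode canonical ribosomal proteins: 15 of the 43 listed for the large subunit, 11 of the 30 listed for the small subunit, and 0 of the 3 acidic stalk proteins. The large subunit genes were Rpl3, Rpl4, Rpl5, Rpl8, Rpl13a, Rpl14, Rpl15, Rpl21, Rpl22, Rpl23, Rpl28, Rpl32, Rpl36a, Rpl37 and Rpl41. The small subunit genes were Rps3, Rps9, Rps12, Rps14, Rps15, Rps15a, Rps16, Rps18, Rps21, Rps24 and Rps27. A further 6 were paralogs (Rpl3l, Rpl7l1, Rpl22l1, Rpl36al, Rpl39l and Rps27l), and Rps19bp1 is a binding partner of a ribosomal protein rather than a subunit. The other 50 canonical genes were not analysed here, so the values describe a sample of the ribosome and not the whole particle.

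Liver total RNA was measured in 294 mice from an F2 cross of 2 inbred strains, B6/J with A/J, using 1 Affymetrix array per animal. Each F2 mouse carries its own mixture of the parental genomes. All animals form a single group: the labels give no sex, age, diet or treatment, and no parental animals. The long number that opens each title has 15 different 3-digit beginnings, shared by 17 to 23 animals each. These label blocks are numbered 1 to 15 here in the order of those digits, and the labels do not say what they stand for.

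The ribosome is built from ribosomal RNA and about equal numbers of each ribosomal protein, and the liver, which exports most plasma proteins, holds many ribosomes. Most mRNAs for ribosomal proteins start with a C followed by a run of pyrimidines, the 5′ TOP motif, through which nutrient signalling by mTOR controls their translation. Excess ribosomal protein that finds no place in a subunit is degraded, and several of these proteins also have roles outside the ribosome.

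The promoters of a few members are printed to show the start site that this motif would occupy and to compare members with and without it. Promoter windows of RefSeq (GRCm38.p6) were listed for 28 of the 33 members, at 33 starts. The windows run from 250 bases before the start to 50 after it. In the stretches below, 40 bases before the listed start are followed by the first 20 transcribed bases, 5′ to 3′ on the gene's strand. Capitals mark a run at the start made of C and then at least 4 bases that are each C or T, and any match to CCGGAAG or AANATGGC on either strand.
Rps27, chr3:90213629-90213688, minus strand: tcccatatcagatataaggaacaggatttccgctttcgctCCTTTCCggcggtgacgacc
Rpl28, chr7:4792925-4792984, plus strand: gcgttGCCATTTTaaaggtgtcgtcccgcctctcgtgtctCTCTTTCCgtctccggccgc
Rps21, chr2:180257339-180257398, plus strand: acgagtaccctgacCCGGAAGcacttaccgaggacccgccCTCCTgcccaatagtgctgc
Rpl15, chr14:18270967-18271026, minus strand: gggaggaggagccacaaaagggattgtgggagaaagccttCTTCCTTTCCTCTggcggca
Rps16, chr7:28350649-28350708, plus strand: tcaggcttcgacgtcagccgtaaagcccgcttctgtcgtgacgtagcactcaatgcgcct
Rpl4, chr9:64173347-64173406, plus strand: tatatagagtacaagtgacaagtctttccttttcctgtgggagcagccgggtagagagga
A start with the pyrimidine run was listed for 7 of the 28 members (25%), against 3.01% of the 27025 genes listed. The 7 were Rpl14, Rpl15, Rpl28, Rps15a, Rps18, Rps21 and Rps27. All 7 are canonical, which makes 33.3% of the 21 canonical members listed, and none of the 6 paralogs had one. CCGGAAG, the core of sites bound by ETS factors such as GABP, was found in the windows of 7 of 28 members (25%) against 9.93% of all genes listed. AANATGGC, the core bound by YY1, was found in 7 of 28 members (25%) against 6.96% of all genes. TATAAA was found on either strand in 3 of 28 members (10.7%) against 15.7% of all genes. In Rps15a, whose stretch is not printed, the AANATGGC match and the pyrimidine run overlap. These matches describe letters in the listed windows. A listed start that differs by a few bases from the one used in liver would hide the run.

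The arrays were alike, with median intensities of 21.1 to 23.2. For each array the correlations with all others were summarised by their median, which was 0.989 for the typical array and 0.974 for the lowest. Of the 294 arrays, 27 stood apart by a low correlation with the others. Block 6 held 5 of them, the most of any block, and 5 blocks held none. Values without the 27 arrays are given beside the spreads, correlations, calls and block means. The hepatocyte markers measured, 6 of 8, were far above the array medians in every animal. Their mean log2 intensity was 12.86 in the lowest animal and 13.53 in the highest. RNA of muscle or pancreas was present in single animals: the mean of 6 muscle markers ran from 3.29 to 7.71 around a median of 3.51, and that of 7 pancreatic markers from 4.22 to 10.71 around a median of 4.63. In whole liver, fewer cells of a type and less RNA per cell cannot be told apart, and this holds for every value below.

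Levels are the logarithm to base 2 of the deposited intensity of each gene's brightest probe. A probe's level depends on its sequence, so levels are compared between animals and not between genes. Of the 26 canonical members, 21 had a mean above the median of every array, and 17 of these had a mean above 10. The means of Rpl3, Rpl5, Rpl21, Rps15a and Rps18 were at or below the highest array median, which was 4.53. The same held for the paralogs Rpl3l and Rpl39l. Rpl3 and Rpl5 are core proteins of the large subunit, which liver cannot do without, so signal at this level says little about the genes these 7 probes are named for. Rpl3l is known from striated muscle and Rpl39l from testis.

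**Figure D1:**
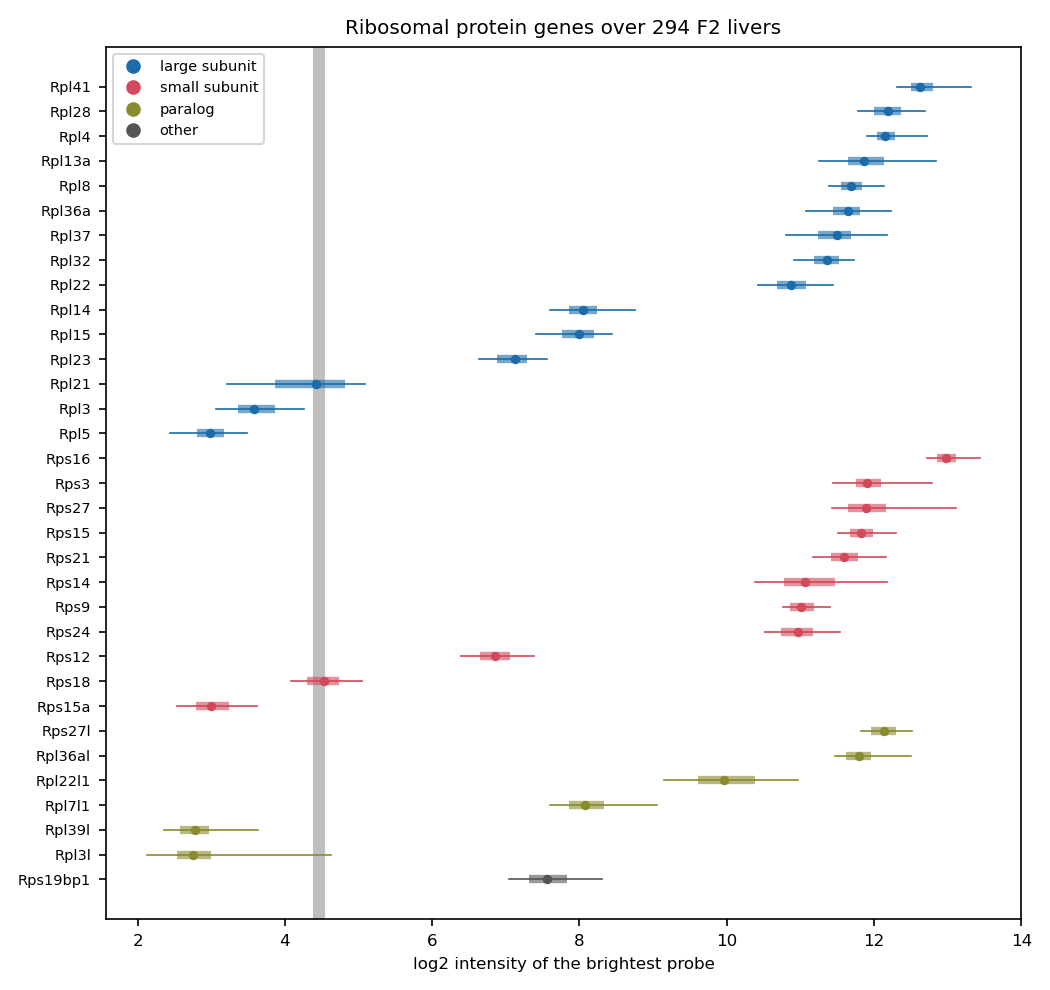
Log2 intensity of each of the 33 genes over 294 livers, by group: the dot is the median, the thick bar runs from the 10th to the 90th percentile and the thin line from the lowest to the highest animal. The grey band spans the medians of the 294 arrays, 4.40 to 4.53, and 7 members lie at or below its upper edge.

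The canonical members varied little between animals. The ratio of the 90th to the 10th percentile had a median of 1.31 over the 26 canonical members, against 1.38 over all genes. Over genes with a mean above 10 it was 1.33, close to that of the canonical members. The SD of 20 of the 26 (76.9%) was smaller than that of genes of like mean, against 50.1% of all genes, and again 20 of 26 without the 27 low-correlation arrays. For comparison, that share was 81.6% for 76 mitochondrial ribosomal protein genes, 89.7% for 68 respiratory chain genes and 80% for 40 proteasome genes. A narrow spread was thus shared with these other lists of multi-subunit particles, and no difference between the lists was tested.

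The narrowest member was Rpl4, a large subunit protein that lines the exit tunnel of the nascent chain. Rpl4 ran from 11.90 in the lowest liver through a median of 12.15 to 12.72 in the highest, with a 90th to 10th percentile ratio of 1.18. Rps16, a small subunit protein with a tail that reaches the decoding region, ran from 12.72 through 12.98 to 13.44 (ratio 1.19). Both are bright and stay within a narrow band in nearly every animal. Rpl8, which lies near the peptidyl transferase centre, ran from 11.39 through 11.68 to 12.13 (ratio 1.22). The next narrowest were Rpl41, the smallest ribosomal protein, with 1.24, and Rps15 and Rps9, each with 1.25. The SDs of Rpl4, Rps9 and Rpl8 were 0.648, 0.657 and 0.674 times that of genes of like mean.

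The widest members fell into dim and bright ones. Rpl21 had the highest ratio, 1.92, but its probe lay at the array medians, from 3.21 through 4.42 to 5.08. The probe of Rpl3 also lay at or below the array medians, with a ratio of 1.41. Among members well above the array medians the paralog Rpl22l1 was widest, from 9.15 through 9.96 to 10.97, a ratio of 1.71 and an SD 1.65 times that of genes of like mean. Its canonical partner Rpl22, whose loss mice survive, ran only from 10.43 through 10.88 to 11.44, a ratio of 1.31. The pair thus differed in spread although the proteins are close relatives.

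Rps14, whose protein sits on the platform of the small subunit, was the widest canonical member among the bright ones. It ran from 10.38 through 11.06 to 12.18, a ratio of 1.61 and an SD 1.60 times that of genes of like mean. Rps27, a zinc-binding protein of the small subunit, ran from 11.44 through 11.88 to 13.11, a ratio of 1.42 and an SD ratio of 1.54. Rpl13a, which in human cells also takes part in silencing of inflammatory mRNAs, ran from 11.25 through 11.87 to 12.85, with a ratio of 1.40. For all 3 genes the highest animal lay farther from the median than the lowest did. With the 27 low-correlation arrays left out the ratios were 1.56 for Rps14, 1.38 for Rps27 and 1.36 for Rpl13a, and the highest values of Rps27 and Rpl13a were 12.69 and 12.33. The ratio of Rpl22l1 was then 1.65. Rps19bp1 had a ratio of 1.44 (7.04 through 7.56 to 8.31).

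The levels of most bright members varied together from animal to animal. To measure this, each gene was scaled to mean 0 and SD 1 over the animals, and each member was set against the mean of the other canonical members. The correlations are descriptions over 294 livers that share 1 array platform and 1 normalization. Over the 26 canonical members the median Pearson r was 0.63, and over the 21 above the array medians 17 had r over 0.5. Rpl8 was highest, with r = 0.81 (Spearman rho 0.76), and it stayed at 0.79 without the 2 animals farthest out and at 0.79 without the 27 low-correlation arrays. Rps15, a small subunit protein of the head, followed with r = 0.81 (rho 0.76), then Rpl4 with 0.79 (rho 0.77), Rps16 with 0.79 (rho 0.73) and Rps21 with 0.77 (rho 0.74). Rps9, Rps3, Rps27, Rpl13a and Rpl22 completed the 10 highest, with r between 0.70 and 0.74. The 5 highest are 2 large and 3 small subunit genes, so the shared part was not confined to 1 subunit.

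The shared part was seen in most blocks. Of the members above the array medians, 17 of the 21 had a positive r in all 15 blocks. The median over the 26 members ran from 0.31 in the lowest block to 0.79 in the highest. Rps15, in spite of its high overall r, was at -0.02 in 1 block, and Rpl37 at -0.21.

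**Figure D2:**
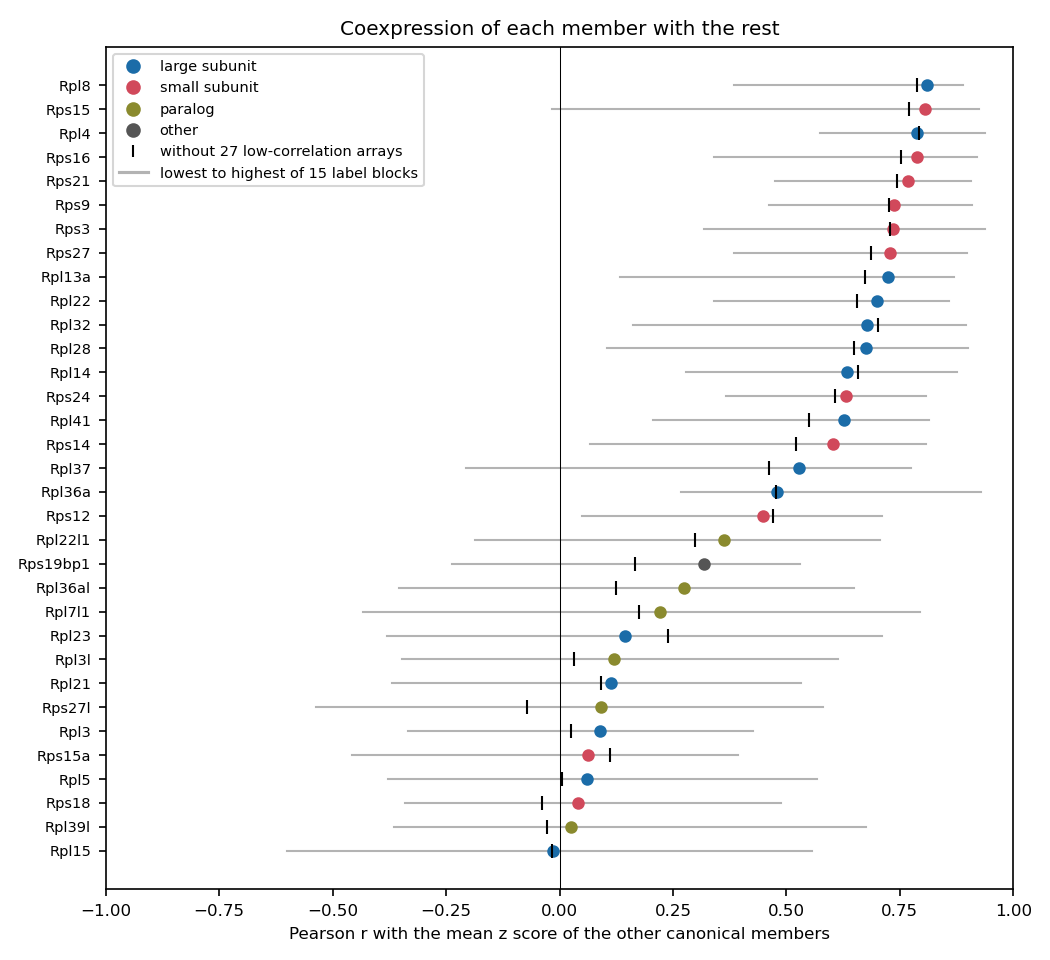
Pearson r of each of the 33 genes with the mean of the other canonical members (scaled to SD 1) over 294 livers (dots, coloured by group), without the 27 low-correlation arrays (ticks), and the lowest to highest value over the 15 label blocks (grey lines). Rpl8 stands highest at 0.81 and Rpl15 lowest at -0.01.

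At the other end, 5 of the 10 lowest were the dim canonical probes, with r of 0.04 for Rps18, 0.06 for Rpl5 and Rps15a, 0.09 for Rpl3 and 0.11 for Rpl21. The dim paralogs Rpl39l and Rpl3l had r of 0.03 and 0.12. The other 3 were not dim. Rpl15, a core protein of the large subunit, had r = -0.01 (rho -0.03) and was positive in 9 of 15 blocks, although its level ran from 7.40 through 7.99 to 8.44. Rpl23 had r = 0.14 (rho 0.19), with a level from 6.63 through 7.13 to 7.56, and r was 0.24 without the 27 low-correlation arrays. These 2 canonical genes did not follow the others in spite of a signal above the array medians. Rps27l, the paralog of Rps27 and a known target of p53, had r = 0.09 (rho 0.04). It was bright and narrow, from 11.82 through 12.13 to 12.52.

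The remaining paralogs lay between. Rpl22l1 reached r = 0.36 (rho 0.33), Rpl36al 0.27 (rho 0.19) and Rpl7l1 0.22 (rho 0.16), and Rps19bp1 reached 0.32 (rho 0.21). Without the 27 low-correlation arrays Rpl36al was at 0.12 and Rps19bp1 at 0.17. No paralog reached the r of any of the 17 canonical members over 0.5. With its own canonical partner, Rpl22l1 had r = 0.40 (rho 0.36), Rps27l 0.18 (rho 0.04) and Rpl36al 0.16 (rho 0.13). Without the 27 arrays these 3 were at 0.36, -0.03 and 0.08.

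The listed start sites did not sort the members in the same way, which was not tested. The 7 members with the pyrimidine run had r from -0.01 (Rpl15) to 0.77 (Rps21), with a median of 0.63. They include the dim probes of Rps15a (0.06) and Rps18 (0.04), which say little about their genes. Rpl15 has the longest run printed above and the lowest r, while Rps16 and Rpl4, whose listed starts have no run, are among the highest. In Rpl4, however, a stretch of C and T lies shortly before the listed start.

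Pairs of members gave a finer picture. Over all pairs of canonical members the median r was 0.27, over the 210 pairs above the array medians 0.46, and over the pairs of the 17 with a mean above 10 it was 0.53. All genes with a mean above 10, of which there were 950, had a median pairwise r of 0.02. Beside the canonical median of 0.27, the mitochondrial ribosome had 0.32, the proteasome 0.33 and the respiratory chain 0.24. Over the genes above the array medians alone the order was another: 0.46 for the canonical members, 0.40 for 37 proteasome genes, 0.32 for the 76 mitochondrial ribosome genes and 0.27 for 64 respiratory chain genes. All bright pairs were positive, 83 (61%) were over 0.5, and 84 were positive in all 15 blocks. Their median was 0.51 without the low-correlation arrays and 0.54 with block means removed. The 12 bright pairs on the same chromosome had a median r of 0.61, and those on different chromosomes had 0.53.

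The tightest pair joined the subunits: Rpl8 and Rps15 had r = 0.88 (rho 0.86, and 0.87 without the low-correlation arrays). Rpl13a and Rps3 followed with 0.85 (rho 0.77, and 0.81 without those arrays). Rpl13a and Rps3 both lie on chromosome 7, as do 6 of the canonical members. Rpl28 and Rps15 had 0.84 (rho 0.83), and Rpl13a and Rps27 0.83 (rho 0.74, and 0.75 without those arrays). The 10 pairs among Rpl8, Rpl28, Rps15, Rps16 and Rps21 moved by at most 0.02 when the 27 arrays were left out. The 6 pairs among Rpl13a, Rps3, Rps14 and Rps27 were lower by 0.04 to 0.11.

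Average linkage at a height of 0.45 placed 11 of the 17 bright genes in 1 set: Rpl13a, Rpl28, Rpl4, Rpl41, Rpl8, Rps14, Rps15, Rps16, Rps21, Rps27 and Rps3. The median r within this set was 0.65. Rpl22, Rpl36a and Rps24 formed another set, with r of 0.67 to 0.74 among themselves and a median of 0.43 with the other bright members. Rpl32 and Rps9 paired at 0.59, and Rpl37 stood alone. Since the sets were drawn from these correlations, their values are a description.

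**Figure D3:**
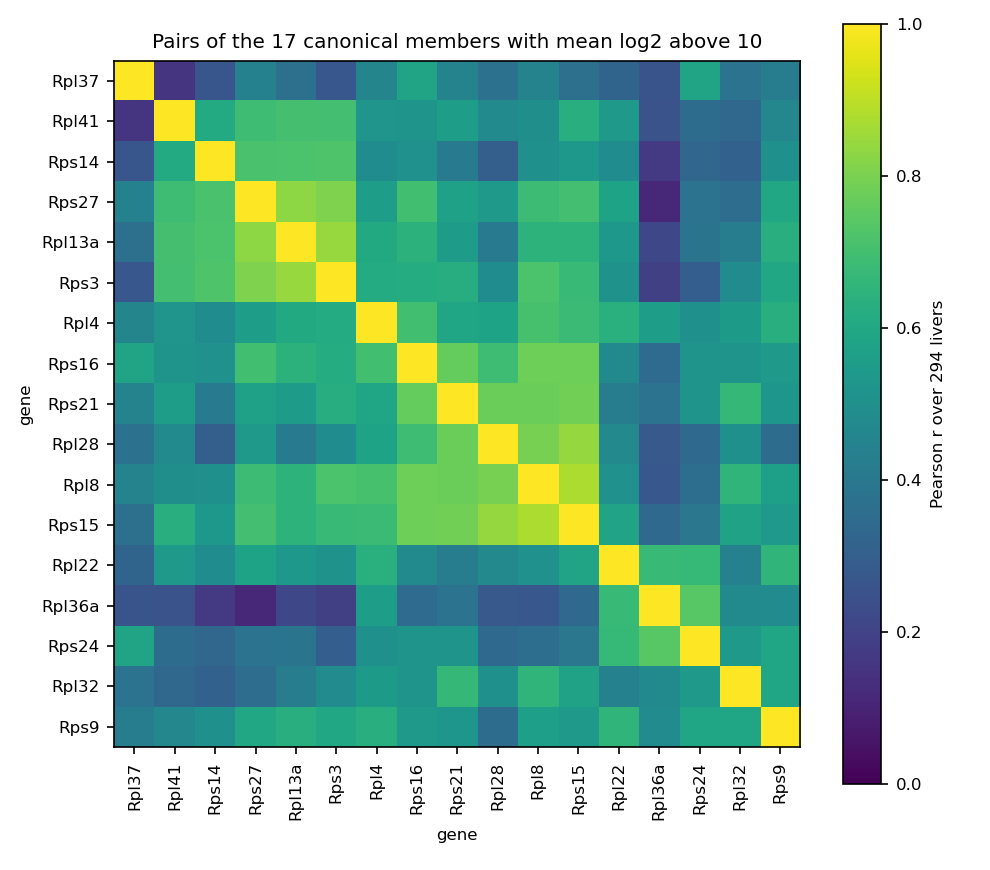
Pearson r over 294 livers for each pair of the 17 canonical genes with a mean log2 intensity above 10, in the order of average linkage; yellow is 1 and dark blue 0. A square of high r holds Rpl8, Rpl28, Rps15, Rps16 and Rps21, another holds Rpl13a, Rps3, Rps14, Rps27 and Rpl41, and Rpl36a is high with Rps24 and Rpl22 and low with Rps27.

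Rpl36a, the only member on the X chromosome, ran from 11.08 through 11.65 to 12.23. It had r = 0.74 (rho 0.74) with Rps24 but 0.11 (rho 0.19) with Rps27, 0.17 with Rps14 and 0.19 with Rps3. With block means removed the r of Rpl36a with Rps27 was 0.23, and it was positive in 14 of 15 blocks. Its paralog Rpl36al, a copy on chromosome 12, is described below for its Y-linked share. The lowest r of all 528 pairs was that of Rpl14 with the paralog Rps27l, at -0.27 (rho -0.30), and it was positive in 0 of 15 blocks. With the mean of 3 Y-linked genes, described below, Rpl14 had r = -0.41 and Rps27l 0.67. The r of this pair with that mean removed was not tested. Rpl15 had -0.24 with Rpl28 and -0.22 with Rps15.

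Where a gene had more than 1 probe, the weaker probe often carried less of the shared signal. The 2 probes of Rpl13a had r = 0.78 with each other, and the second, with a mean of 8.47, still had 0.65 with the other members. The second probe of Rps24 had 0.79 with the first, and its dimmest, at 3.58, had 0.04. The second probe of Rps3, at 5.94, had 0.48, and that of Rpl22, at 8.77, had 0.27. The second probe of Rpl8 lay at 3.76 and had -0.03 with the first. The weaker probes of Rpl7l1 had r of 0.71 and 0.63 with the brightest. Their r with the other members, 0.34 and 0.25, was above the 0.22 of the brightest. Named pseudogenes were listed in RefSeq for 19 of the 33 genes, up to 23 for Rps12, so signal from near-identical transcripts cannot be told apart from that of the gene where a probe does not separate them.

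Beyond the members, few genes followed closely. Of the 16610 other genes, 49 (0.295%) had r over 0.5 with the mean z score of the canonical members, and the median was 0.02. The highest was Eef1b2, the exchange factor that recharges the elongation factor bringing in aminoacyl tRNA, with r = 0.83 (rho 0.80, and positive in 15 of 15 blocks). Eef1b2 ran from 11.25 through 11.55 to 12.11. Eif3k, a subunit of initiation factor eIF3, had 0.72 (rho 0.65), and Fau, which encodes a small subunit protein fused to a ubiquitin-like domain, also had 0.72 (rho 0.61). Fau is thus a ribosomal protein gene that the symbol rule misses. It ran from 11.60 through 11.91 to 12.48.

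The other 7 of the 10 highest were Ssr4 (0.63), a subunit of the translocon-associated complex, Eif3i (0.63), Eif3h (0.61), Clta (0.60), which encodes clathrin light chain, Eef2 (0.60), Eef1d (0.60) and Use1 (0.59), a SNARE. Without the 27 low-correlation arrays these 10 had r of 0.51 (Use1) to 0.81 (Eef1b2). Rpsa, another small subunit gene with a different name, had r = 0.05, and its probe was dim at a mean of 2.39. The 5 lowest were Phkb (-0.58), a subunit of phosphorylase kinase, Ppm1b (-0.58), Abcd3 (-0.58), a peroxisomal fatty acid transporter, Pdha1 (-0.57), of pyruvate dehydrogenase, and Ermp1 (-0.57). Each was positive in 0 of 15 blocks.

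The measured translation factors did not all follow. Of the 14, Eef1b2, Eif3k, Eif3h, Eef2, Eef1d and Eif3f (0.57) had r over 0.5, and Btf3 had 0.49. Eif4b (0.26), Eif3l (0.25), Naca (0.21), Pabpc1 (0.17), Hnrnpa1 (0.08) and Eif3m (0.04) were low, and Eif3e had -0.11. The subunits of eIF3, which work as 1 complex, thus ranged from -0.11 to 0.72. Naca had 0.45 without the 27 low-correlation arrays.

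The closest followers of the 2 main sets shared Eef1b2 and otherwise differed. For the set of 11 they were Eef1b2 (0.85), Eif3k (0.84), Fau (0.81), Nop53 (0.73), which acts in ribosome assembly, and Elof1 (0.73). For Rpl22, Rpl36a and Rps24 they were Sugt1 (0.57), Matr3 (0.57), Prdx4 (0.55), Eef1b2 (0.54) and Aimp1 (0.50). The lowest for the set of 11 were Actr2 (-0.66), Hibch (-0.66) and Mmut (-0.65), the last 2 of branched-chain amino acid breakdown. The lowest for the set of 3 were Gfm1 (-0.53), Slc25a5 (-0.53) and Dlst (-0.51), all mitochondrial. The mean of the set of 11 had r = -0.43 with the array's median correlation with other arrays, and that of the set of 3 had -0.27 (rho -0.10). With the 27 low-correlation arrays left out these were -0.18 and -0.00065, the followers of the set of 11 had r of 0.64 (Elof1) to 0.82 (Eef1b2), and those of the set of 3 had 0.51 to 0.63. The 3 lowest for the set of 11 were then at -0.57 to -0.52. The part of array quality in these lists was not tested.

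To ask which other programmes moved with the members, log2 intensity was fitted on the score of each of 7 gene lists with limma, for all genes outside the list. The score is the mean z score of the list, none of which is a member. A gene was called at a Benjamini-Hochberg adjusted p under 0.05 over all genes tested. The p-values reflect the spread between these animals.

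On the translation factor score, 22 of 33 members (66.7%) were called higher, against 22% of all genes, and 1 was called lower, against 23.5%. The 22 comprised 20 of the 21 canonical members above the array medians, Rpl7l1 and Rps19bp1, and none of the dim canonical probes. The exception among the 21 was Rpl15, with a slope of -0.02 ± 0.02 log2 units per score unit (SE, limma adjusted p = 0.384, n = 294). Rpl8 rose by a slope of 0.16 ± 0.01 (SE, limma adjusted p = 3.46e-52), which is 1.06-fold per SD of the score. Rps27 had the steepest slope, 0.26 ± 0.02 (SE), or 1.10-fold per SD. Rpl14, Rpl28 and Rps15 had slopes of 0.20, 0.20 and 0.18. The member called lower was Rps27l, with -0.04 ± 0.01 (SE, limma adjusted p = 0.013), and with the Y-linked mean in the fit this call was lost (slope 0.01, adjusted p = 0.669).

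On the score of 31 ribosome biogenesis genes, which make and process ribosomal RNA, 21 members were called higher, against 24.2% of all genes, and 3 lower, against 29.4%. The 21 held 15 of the 21 canonical members above the array medians and 4 of the 6 paralogs. The members with the highest r were not the core ones: Rpl7l1, a homologue of a yeast assembly factor, had 0.66 and Rps19bp1 0.58, followed by Rpl36al (0.42) and Rps16 (0.40). Rpl7l1 had a slope of 0.21 ± 0.01 log2 units per score unit (SE, n = 294), or 1.09-fold per SD, and was positive in 15 of 15 blocks. Rpl8, tightest with the rest of the ribosome, had r = 0.31 here. Rps12, Rpl5 and Rpl3l were the members called lower, with r of -0.20, -0.22 and -0.13, and the probes of Rpl5 and Rpl3l are dim. Without the 27 low-correlation arrays fewer members were called higher, and the shares of all genes are not given for that setting. The r was then 0.61 for Rpl7l1, 0.57 for Rps19bp1, 0.38 for Rpl36al, 0.39 for Rps16 and 0.28 for Rpl8.

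On the mitochondrial ribosome score 18 members were called higher, against 27.2% of all genes, and 3 lower, against 24.1%. Rps19bp1 had the highest r, 0.60, then Rps3 with 0.48. Rpl36al and Rps27l each had 0.46, and Rps27 had 0.45 (rho 0.27). Rps19bp1 had 0.55, Rps3 0.36 and Rps27 0.30 without the 27 low-correlation arrays. On the respiratory chain score 14 members were called higher, against 20.7% of all genes, and 1, Rpl36a, lower, against 14.5%. With the block as a factor the call of Rpl36a was lost (slope -0.03, limma adjusted p = 0.282, against -0.05 and adjusted p = 0.0167 without it). Here 8 were higher, against 15.8% of all genes, and 2 lower, against 10.6%, without the 27 low-correlation arrays. On the proteasome score 10 members were called higher, against 23.4% of all genes, and 2 lower, against 22.5%. With r of 0.62, Rpl36al was highest on the proteasome score, with Rpl7l1 at 0.60 and Rps19bp1 at 0.48. Only 6 of the 21 canonical members above the array medians were among the 10, a share close to that of all genes. With the Y-linked mean in the fit, 18 members were called higher on the proteasome score, against 24% of all genes.

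Over all 33 members, the shares called on the marker scores of other liver cells were near or below those of all genes. The difference in shares was not tested. On the score of 13 macrophage markers, of which none lay at or below the array medians and whose mean ran from 6.75 to 10.42, 9 members (27.3%) were called higher, against 21.6% of all genes, and 7 (21.2%) lower, against 33.4%. The 9 were all among the 21 canonical members above the array medians, a larger share of those 21 than the 21.6% of all genes. Their r ran from 0.13 (Rps3) to 0.25 (Rpl41). Of the 7 called lower, 1 was among those 21. The 7 lower were led by Rps27l (-0.36), Rpl36al (-0.28), Rpl7l1 (-0.25) and Rps19bp1 (-0.24). In the 267 arrays other than the low-correlation ones fewer members were called in each direction, and the shares of all genes are not given for that setting. These 4 then had r of -0.46, -0.36, -0.23 and -0.27. With the Y-linked mean in the fit, 2 were called higher, against 12.9% of all genes, and 0 lower, against 16.3%, at the same threshold. With the principal component of largest variance in the fit, the slopes of all 4 turned positive. That of Rpl36al then passed the threshold as higher, at 0.06 (limma adjusted p = 3.26e-09), and the other 3 did not pass it. On the score of 13 lymphocyte markers, 6 of them at or below the array medians, 5 members (15.2%) were called higher, against 18.4% of all genes, and 5 lower, against 22.3%. Rpl7l1 (-0.33), Rps19bp1 (-0.29) and Rpl23 (-0.27) were lowest, and Rps12 and Rpl32 highest at 0.28. The mean z score of the canonical members had r = 0.12 (rho 0.14) with the macrophage mean, 0.11 (rho 0.14) with the lymphocyte mean, -0.09 (rho 0.03) with the hepatocyte mean and -0.19 (rho -0.23) with the mean of 2 erythroid markers. The part of these cells in the members' levels was not tested.

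The Y-linked genes gave a further division. No animal was assigned a sex. A linear fit on the mean of 3 Y-linked genes took a median of 1.75% of the variance of the canonical members, against 2.09% over all genes and 6.57% over genes with a mean above 10. It took over 10% in 5 members (15.2%), against 21% of all genes, and in 2 of the 19 members with a mean above 10, against 39.7% of all genes of that level. Rps27l had 45% and Rpl36al 36.5%, both with a rising line. Rpl14 had 16.7%, with a falling line, and Rps19bp1 and Rpl7l1 had 13.9% and 13.5%, with rising lines. The 2 paralogs thus differed from their canonical partners, since Rps27 had 1.18% and Rpl36a 0.115%. These shares were not tested. The measured genes on either side of Rps27l on chromosome 9 are Lactb and Rab8b. Rps27l had r = 0.51 (rho 0.56) with Lactb and -0.29 (rho -0.34) with Rab8b.

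Levels differed between label blocks for most members. The moderated F test of limma called 22 of 33 members (66.7%), against 32.7% of all genes. The 22 held 18 of the 21 canonical members above the array medians, and 0 of the 5 dim canonical ones. The share of all genes called without the 27 low-correlation arrays is not given, so a count in that setting has nothing to be set against. The blocks took a median of 12.9% of the variance of the 26 canonical members and 17.1% over those above the array medians. The median was 7.01% over all genes, 11% over genes with a mean above 10, 11.6% for the mitochondrial ribosome and 14.3% for the respiratory chain. The share of the 26, which include the 5 dim probes, thus lay nearer to 11% than to 7.01%. That of the members above the array medians, 17.1%, was higher than both, and the difference was not tested. The medians were 12.2% for the canonical members, 14.5% for those above the array medians and 7.04% for all genes without the 27 low-correlation arrays.

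Rps27 had the largest share, 27.5%, with a mean of 12.23 ± 0.32 (SD, n = 23) in block 6 and 11.77 ± 0.18 (SD, n = 18) in block 15, a 1.38-fold difference (limma F, adjusted p = 1.13e-11). The ranges of the 2 blocks overlapped: Rps27 ran from 11.78 to 13.11 in block 6 and from 11.49 to 12.13 in block 15. Rps3 followed with 26% of variance and 1.26-fold between blocks 6 and 4, and Rpl13a with 24.9% and 1.35-fold between the same blocks. When the low-correlation arrays were left out, which leaves 18 animals in block 6, Rps27 had 22.7%, Rps3 26.6% and Rpl13a 23.9%. Their highest block was still 6. Their lowest was block 4, which for Rps27 took the place of block 15. The folds between blocks 6 and 4 were then 1.26 for Rps27 and 1.29 for Rpl13a. Rpl22 had 22%, with the highest mean, 11.06 ± 0.16 (SD, n = 19), in block 5 and the lowest, 10.76 ± 0.14 (SD, n = 22), in block 7. The second probe of Rpl22 had only 4.78%, and its r with the other members was 0.10 against 0.70 for the first. Rpl15 had 20.8%, with 8.11 ± 0.16 (SD, n = 21) in block 13 and 7.87 ± 0.18 (SD, n = 22) in block 7. Rps14, with 18.5%, had the widest gap, 1.41-fold between blocks 6 and 4, and 1.32-fold without those arrays. Over the 21 canonical members above the array medians the fold between highest and lowest block ran from 1.09 to 1.41, with a median of 1.15, and without those arrays from 1.10 to 1.32 with a median of 1.12.

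The blocks moved many members together. Block 6 was the highest of the 15 for 10 of the 21 and block 4 the lowest for 11. In block 4 none of the 21 lay above its own mean over all animals, and their block means had a median of -0.55 SD. In block 15, 2 of the 21 did (median -0.36 SD), and in block 5, 19 did (median 0.27 SD). Block 6 was not high throughout: 17 of the 21 lay above their mean, while Rpl36a had its lowest block there, at 11.55 ± 0.15 (SD, n = 23). When the low-correlation arrays were left out, block 6 was still the highest for 10 of the 21 and block 4 the lowest for 13, and again none of the 21 lay above its mean in block 4. The lowest block of Rpl36a was then block 10, at 11.56 ± 0.17 (SD, n = 18). Rpl15 and Rpl23 again went their own way, with their highest blocks at 13 and 3. What the blocks stand for was not tested, and with no design in the labels block cannot be told apart from any condition that differed between them.

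**Figure D4:**
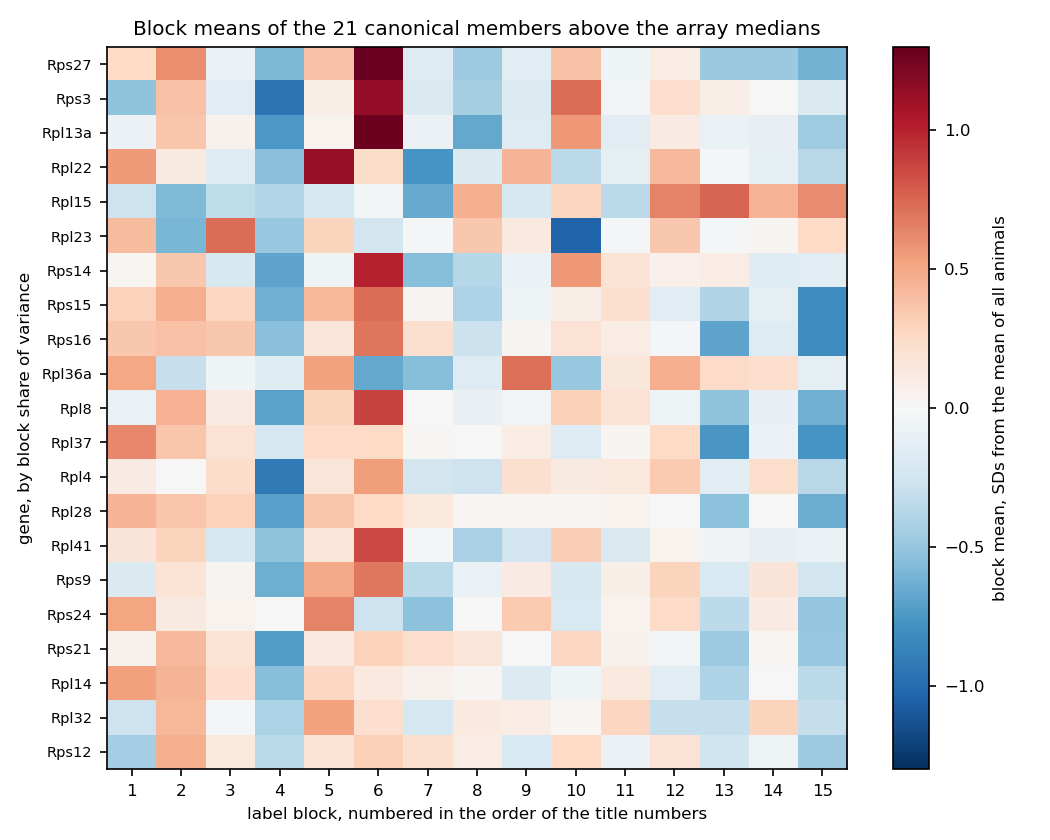
Mean of each label block for the 21 canonical genes above the array medians, in SDs from the mean of all 294 livers, with genes ordered by block share of variance; red is high and blue low. Block 6 is red for most genes but blue for Rpl36a, and block 4 has no gene above its mean.

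A few livers stood out. The mean z score of the 21 canonical members above the array medians ran from -1.63 through -0.01 to 3.04. The highest animal, from block 1, had 16 of the 21 members more than 2 SD above their means, with Rpl4 at 12.72, Rps16 at 13.44 and Rpl8 at 12.13, the highest value of each. Its array had the lowest median correlation with the other arrays, 0.974. The next highest, from block 6, had 12 members over 2 SD, and it held the highest values of Rps27 (13.11), Rps3 (12.79), Rpl13a (12.85) and Rps14 (12.18). Its Rpl36a was 11.75, close to the median of 11.65. Of the 15 highest animals, 7 were among the 27 low-correlation arrays, and they came from 7 blocks.

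At the low end, 9 of the 15 lowest animals belonged to block 4, and 1 was among the low-correlation arrays. The lowest animal, from block 4, had 7 members more than 2 SD below their means. The next lowest, from block 5, had 8, although its block was one of the high ones. The 15 lowest animals thus came from 5 blocks, with 9 of these animals in block 4. The 15 highest came from 7 blocks, with 7 of these animals on low-correlation arrays. The spread of the highest animals over blocks is not given without those arrays.

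The long upper tails of Rps27 and its companions were also seen in the shape of their distributions. An F2 animal carries 0, 1 or 2 copies of a parental allele, so a gene with a strong local difference between the strains can show classes in the ratio 1:2:1. Mixtures of normal distributions were set against a single normal by the Bayesian information criterion. None of the 33 members had the 1:2:1 shape, which 0.138% of all genes had. A shape with 2 classes was found for 6 members (Rpl13a, Rpl21, Rpl3l, Rpl41, Rps27 and Rps3), against 15.9% of all genes with either shape. The members' share was thus near that of all genes. In Rps27 the upper class held 4.39% of animals around 12.71, the lower class lying around 11.88. The upper class held 4.32% in Rpl13a (around 12.46), 2.79% in Rps3 (12.49) and 1.97% in Rpl41 (13.14). In Rpl3l it was 1 animal at 4.63, and in Rpl21, a dim probe, the upper class held 81.6%.

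The tails overlapped in part. Of the 13 highest animals for Rps27, 11 were among the 13 highest for Rps3, 9 among those for Rpl13a and 9 among those for Rps14, but 8 among those for Rpl41. Rpl41 shared 7 or 8 of its 13 with each of the other 4 genes. Of the 13 highest for Rps27, 10 were low-correlation arrays. A group of 4 animals, from blocks 2, 6 and 10, were among the 13 highest for Rpl13a, Rpl41, Rps3, Rps14 and Rps27 alike, and all 4 are low-correlation arrays. Their hepatocyte marker means were 12.86 to 13.03, at the low end of the range over all animals. Their muscle marker means were 3.43, 3.78, 3.85 and 7.71, against a median of 3.51 over all animals. Their proliferation marker means were 3.99, 4.66, 5.05 and 6.41, against a median of 4.19. The values 7.71 and 6.41 were the highest of all animals, though in different animals. In all 4 the lymphocyte means (4.44 to 4.70) and the means of 5 neutrophil markers (4.36 to 5.05) lay above their medians of 4.31 and 4.27. Of these markers, 6 lymphocyte and 3 neutrophil ones lay at or below the array medians. The macrophage means were 7.94, 8.50, 8.80 and 9.15, against a median of 8.02. The pancreatic (4.56 to 4.98) and erythroid (6.02 to 7.29) means lay on both sides of their medians, 4.63 and 6.72. The part of these in the members' levels was not tested. Without the 27 arrays 2 members kept or gained a 2-class shape, Rpl21 and Rpl37, against 6.74% of all genes.

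**Figure D5:**
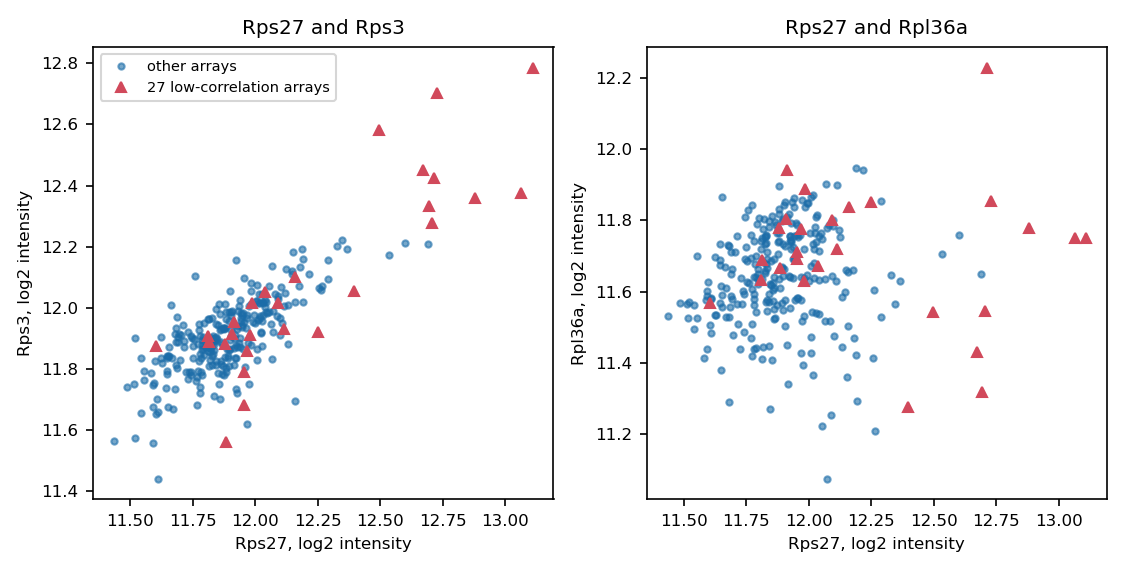
Log2 intensity of Rps27 against Rps3 (left) and Rpl36a (right), 1 point per liver; triangles are the 27 low-correlation arrays and circles the other arrays. The highest animals for Rps27 are high for Rps3 and are mostly triangles, while Rpl36a shows little relation to Rps27.

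The shared level of the members was related to how well an array matched the others. The mean z score of the canonical members had r = -0.38 (rho -0.24) with the array's median correlation with other arrays. Without the 27 low-correlation arrays it was -0.14 (rho -0.15). With the array's median intensity it was -0.05 (rho -0.04). Among single members the strongest were Rps16 (-0.49), Rpl13a (-0.44), Rpl36al (-0.42) and Rps27 (-0.41), and Rpl15 (0.12) and Rpl23 (0.06) were near 0. The coexpression itself was little changed without those arrays, with a median r of 0.63 in each case.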

How the data were processed

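Liver RNA of 294 F2 mice was measured on 1 Affymetrix array each. The deposited values are intensities on a linear scale, summarised per probe set with RMA per the submitters' processing notes. The RMA version and settings are not given in the sources used here. The table held 32640 probe sets. RMA pulls arrays to 1 common distribution, so levels are relative within an array and a change of all mRNA would not show. The values were taken to log2 with no pseudocount and no further scaling. GEO's platform annotation named 25508 probes by 1 symbol, 7132 by none and 0 by several. Symbols were updated through RefSeq (GRCm38.p6), which left 16643 genes, each represented by its brightest probe.

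The members and gene lists were chosen with earlier results of these data known. Named genes were those highest and lowest in correlation, spread and block share, those with a mixture shape or several probes, the 10 highest and 5 lowest other genes by r, and the translation factors. Label blocks and list scores were tested with limma 3.58.1 in R 4.3.3 over all genes, with Benjamini-Hochberg adjustment at 0.05. The p-values measure the spread between these animals, each measured once. SDs were set against a running median over 501 genes of like mean. A mixture was called when its criterion lay at least 10 below the normal's and its class means at least 1.5 SD apart. Low-correlation arrays lay over 3 median absolute deviations below the median. The limma fits and the mixture call were tested on simulated data. Alternatives were quantile normalization, the mean of all probes, block means, the principal component of largest variance or the Y-linked mean removed, those arrays left out, and a filter on mean level. Array number and signal over background limit the precision.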

Additional observations from a re-analysis of the deposited data

How the results depend on the processing

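No paired analysis was possible because all animals form 1 group and their numbers only name them. Block means were not removed for the block test. The filter left 26 of 33 members. The count of members that differed between label blocks, the median spread and the median r with the rest stayed within 1.5 times or 1 SD over blocks of the reported values under every alternative run. The median pairwise r was 0.46 with the filter on mean level and 0.46 over the canonical members above the array medians, a choice made after seeing the data, and 0.15 over all 33 members. Without the 27 low-correlation arrays, 2 members had a mixture shape. Counts of members called by limma moved as follows, and the cause was not tested. Percentages in brackets are the shares of all genes called in the same setting and direction. With the principal component of largest variance removed, 0 (20.5%) were lower on the translation factor score and 0 (10.5%) on the macrophage score. On the mitochondrial ribosome score 5 (25.6%) were then lower, and on the proteasome score 5 (25.9%). On the lymphocyte score 8 (21.6%) were higher and 3 (20.7%) lower. With the Y-linked mean removed, 0 (20.8%) were lower on the translation factor score and 3 (19%) on the lymphocyte score. On the proteasome score 18 (24%) were then higher, and on the macrophage score 2 (12.9%) were higher and 0 (16.3%) lower. Without the low-correlation arrays, 2 (25.5%) were lower on the translation factor score, 6 (25.4%) on the mitochondrial ribosome score and 6 (22%) on the proteasome score. On the respiratory chain score 8 (15.8%) were then higher and 2 (10.6%) lower, and 3 (17.1%) were higher on the lymphocyte score. With quantile normalization, 1 (22.3%) was lower on the biogenesis score, 0 (17.7%) on the mitochondrial ribosome score and 0 (17.6%) on the proteasome score. On the lymphocyte score 8 (15.6%) were then higher. With the filter, 1 was lower on each of the biogenesis (28%), mitochondrial ribosome (22.6%) and proteasome (24.8%) scores. With the mean of all probes, 4 (21.1%) were lower on the proteasome score. With the block as a factor, 0 (13.5%) were lower on the respiratory chain score.

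Some slopes (log2 per score unit) changed sign. With quantile normalization those on the mitochondrial ribosome score were 0.0303 for Rps12 and 0.0208 for Rps18. On the macrophage score, removal of the principal component gave -0.0125 for Rpl14, 0.0605 for Rpl36al (past the threshold as higher), 0.0164 for Rpl7l1, 0.0212 for Rps19bp1 and 0.0220 for Rps27l. On the same score, removal of the Y-linked mean gave -0.000761 for Rpl14, 0.0161 for Rpl36al and 0.0063 for Rps27l. On the lymphocyte score, removal of the principal component gave 0.0183 for Rpl36al and 0.000585 for Rps27l. On the translation factor score, removal of the Y-linked mean gave 0.0065 for Rps27l. Probes at the array medians (7 of 33) limit what can be said of their genes.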
